A study of Mus musculus with 187 samples.

Results

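Single mouse embryos that received small RNA from sperm of control-diet males form the reference arm of this series, and the embryo-to-embryo variation within that arm is described here. The 42 embryos were chosen by their labels alone, as the late 2-cell embryos injected with control small RNA, and they are 42 of the 187 samples of the series. The study asks whether small RNAs carried by sperm alter gene expression in the early embryo. All 42 embryos were of the FVB strain and came from in vitro fertilisation (IVF) with sperm and oocytes of animals on the control diet. Each zygote was injected 2 h after IVF with small RNA of control-diet sperm, at 0.5 ng per µl per the file headers. Embryos that showed GFP, the marker of a successful injection, were cultured in KSOM medium, collected individually at the late 2-cell stage 32 h after IVF, and sequenced with a single-cell protocol. Each sample is 1 embryo. No label links an embryo to its litter or sperm preparation, so the p-values below measure only the spread between these embryos, part of which may be technical. Both cells of an embryo were sequenced together, so fewer cells with a transcript and less RNA per cell cannot be told apart.

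The sample titles end in 1 of 6 codes, which the file header lists as dates and which are called batches A to F here, with 5, 4, 8, 1, 17 and 7 embryos. Total counts per embryo ran from 664569 to 4180406 with a median of 1967200. The table lists 8735 genes, of which 7988 to 8721 had a count in an embryo, with a median of 8406. A count of 0 allows a level of up to 4.56 CPM (the scaled count relative to the embryo's total) in the embryo of the lowest total and 0.703 CPM in the embryo of the highest, taking 3 counts as the limit, for counting error only. The 2-cell markers Zscan4d, Tcstv3, Tdpoz4, Zfp352, Arg2 and Sp110 and the oocyte markers Zp3, Gdf9, Omt2b, Nlrp5 and Bmp15 were all detected. No gene of the 10 on the Y-linked list is in the table, so the sex of the embryos was not analysed here.

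At the late 2-cell stage a mouse embryo is replacing messenger RNA stored by the oocyte with transcripts of its own genome. A burst of transient 2-cell transcripts accompanies this switch, many of them from multi-copy families such as Zscan4, Tdpoz, Usp17l and Tcstv, and some start in retroviral repeats. Oocyte messages are degraded in the same period, and the embryo builds up nucleoli, ribosomes and proteasomes for the cleavage divisions that follow.

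The 3 groups whose members moved together most were the 2-cell transcripts, the cytosolic ribosomal proteins and the nucleolar ribosome biogenesis factors. The 2-cell list differed from the others in short sequence letters near the start sites. For display, 7 promoters picked because they carry those letters are shown first. Each stretch is the 100 bases before the RefSeq gene start, read 5′ to 3′ on the strand of the gene from GRCm38.p6. Capitals mark TATAAA, read on the gene's strand only, and CGGAAG or its reverse complement CTTCCG. The positions are chr7:11166149-11166248 for Zscan4d, minus strand, chr7:11397815-11397914 for Zscan4f, plus strand, and chr7:104842584-104842683 for Usp17lb, minus strand. They are chr6:125131783-125131882 for Nop2, plus strand, chr5:120613030-120613129 for Ddx54, plus strand, chr12:28635954-28636053 for Rps7, minus strand, and chr1:72711160-72711259 for Rpl37a, plus strand.
Zscan4d: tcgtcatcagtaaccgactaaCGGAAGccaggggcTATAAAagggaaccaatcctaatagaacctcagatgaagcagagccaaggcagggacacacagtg
Zscan4f: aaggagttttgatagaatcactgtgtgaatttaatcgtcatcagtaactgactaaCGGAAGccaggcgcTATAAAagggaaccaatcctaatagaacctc
Usp17lb: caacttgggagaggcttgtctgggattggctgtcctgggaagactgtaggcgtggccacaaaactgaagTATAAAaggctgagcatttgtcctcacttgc
Nop2: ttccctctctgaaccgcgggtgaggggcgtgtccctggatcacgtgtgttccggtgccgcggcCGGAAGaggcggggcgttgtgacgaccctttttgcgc
Ddx54: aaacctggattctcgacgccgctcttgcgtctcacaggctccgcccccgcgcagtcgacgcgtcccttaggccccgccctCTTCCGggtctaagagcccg
Rps7: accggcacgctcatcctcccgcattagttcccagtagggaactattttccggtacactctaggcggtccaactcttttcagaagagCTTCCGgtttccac
Rpl37a: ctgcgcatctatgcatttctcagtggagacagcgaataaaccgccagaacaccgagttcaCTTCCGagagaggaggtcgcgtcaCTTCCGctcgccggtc

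Zscan4d and Zscan4f, which lie in the same gene cluster on chromosome 7, carried both sets of letters in nearly the same surroundings. Over the 250 bases before the start, TATAAA stood in 8 of the 19 matched 2-cell promoters (42.1%), against 7.59% of all 32851 promoters in the RefSeq table and 3.95% of the 3341 matched promoters of genes with a mean of 50 CPM or more. The 2-cell list holds multi-copy families, so promoters of near-identical copies may each be counted, and only 19 of its 45 members were matched. CGGAAG, searched on both strands, stood in 33 of 64 matched ribosomal protein promoters (51.6%), in 29 of 67 nucleolar ones (43.3%) and in 14 of 28 proteasome ones (50%). The same letters stood in 3 of 19 2-cell promoters (15.8%) and in 3 of 51 oocyte promoters (5.88%). They stood in 13.6% of all promoters and in 30.4% of those of genes at the mean. TATAAA stood in 3.12% of the ribosomal protein, 2.99% of the nucleolar, 9.8% of the oocyte and 10.7% of the proteasome promoters. The median number of CG dinucleotides in the window was 1 for the 2-cell list, 2 for the oocyte list, 17.5 for the ribosomal proteins and 16 for the nucleolar factors, against 6 over all promoters and 18 for those of genes at the mean. These matches describe letters in a fixed window and are not binding sites.

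Spread between embryos was measured on log2(CPM + 1) after removing the batch means and a slope on the log2 total count. Batch took a median of 17.2% of the variance of a gene, total count 5.35%, and both together 24.3%. Among the 4300 genes with a mean of 50 CPM or more, the median SD of what was left was 0.80 log2 units at means of 50 to 200 CPM, 0.62 at 200 to 1000 CPM and 0.57 above 1000 CPM. Counting error alone would give a median SD of 0.118, 0.0640 and 0.0300 in those 3 classes. Measured against a smooth trend of SD on the mean, 477 genes (11.1%) varied at least 1.5 times as much as the trend and 330 (7.67%) at most the trend divided by 1.5. The threshold cuts a continuous range: Unc5c lay just below it at 1.4995 and Gabarapl2 just above it at 1.5001.

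**Figure D1:**
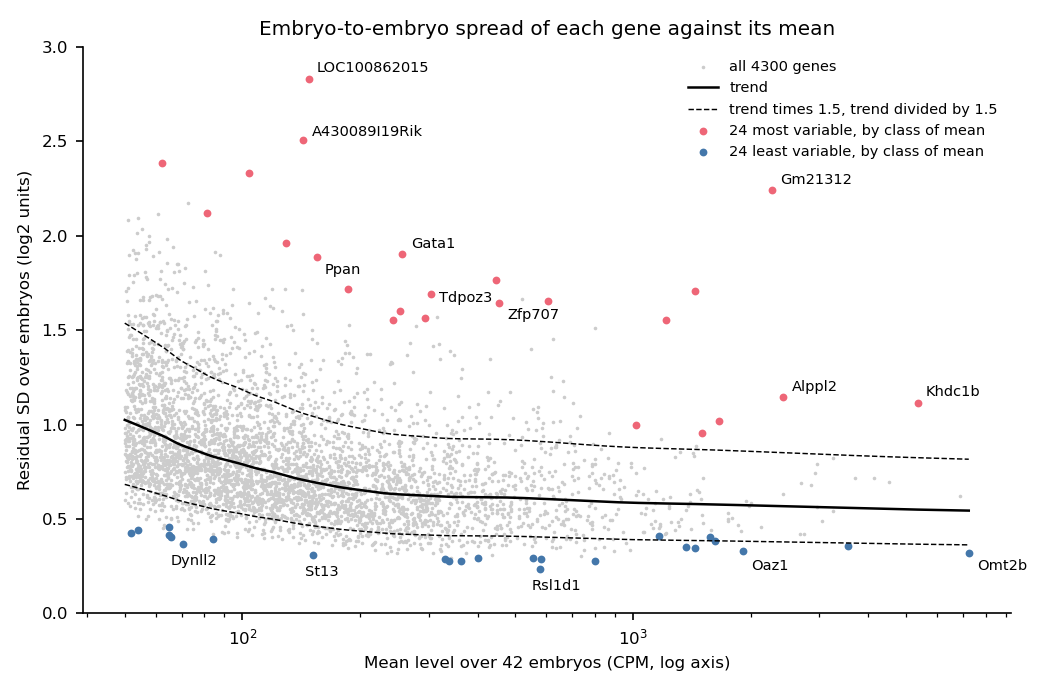
Each point is 1 of 4300 genes, with its mean level over 42 embryos in CPM on a log horizontal axis and the SD of its residuals over embryos in log2 units on the vertical axis; the solid line is the trend and the dashed lines are 1.5 times the trend and the trend divided by 1.5. The 24 named most variable genes (red) and 24 least variable genes (blue) lie outside the dashed lines, but for Ube2d3 and Gm13363 at ratios of 0.70, with Gm21312 and LOC100862015 farthest above and Rsl1d1 and Dynll2 among the farthest below.

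Most of the named variable transcripts were of 2 kinds: genes with shared reads that spread widely over the embryos, and genes with whole-number counts that were missing in a few. For the first kind the upper quartile of embryos was 23.2 times the lower for A430089I19Rik. It was 7.97 times for Gm5662, 7.76 times for Gm21312 and 7.09 times for Tdpoz3. LOC100862015 ran from 0 to 1234 CPM with a median of 64.5 CPM, was at 0 in 7 embryos, and varied 4.04 times as much as the trend. Gm21312 ran from 0 to 25123 CPM with a median of 605 CPM and a ratio of 3.94. Control replicate 21 held the highest level of both genes, and replicate 9 was among the 3 highest embryos for each. A430089I19Rik, with 0 to 1117 CPM, a median of 32.2 CPM and a ratio of 3.55, was also highest in replicate 21. Tdpoz3, a speckle-type POZ gene of the 2-cell list, ran from 10.96 to 1758 CPM with a median of 169 CPM and a ratio of 2.72, and Gm5662 from 25.3 to 4295 CPM with a median of 335 CPM and a ratio of 2.73. Khdc1b, a KH domain gene of the oocyte and early embryo and the most abundant of the group, ran from 729 to 28557 CPM around a median of 3229 CPM. For Gm21312, A430089I19Rik, Tdpoz3, Gm5662 and Khdc1b the values are not whole numbers in 97.6% to 100% of embryos, which was taken here as reads shared among copies, so the level of each copy is uncertain.

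Many of the named genes with whole-number counts in all or nearly all embryos reached high ratios through embryos at or near 0. Others, such as Gm1965 at 296 to 6188 CPM and Cdc42se2 at 353 to 4490 CPM, stayed far above 0 in every embryo. Gata1, which encodes a GATA transcription factor known from blood, ran from 0 to 603 CPM with a median of 251 CPM and a ratio of 3.02. Pitpnb, a phosphatidylinositol transfer protein gene, ran from 0 to 1147 CPM with a median of 467 CPM and a ratio of 2.87. The nucleolar genes Ppan, at 0 to 545 CPM with a median of 134 CPM, and Nop9, at 0 to 396 CPM with a median of 184 CPM, had ratios of 2.73 and 2.60. Gata1 and Nop9 were at 0 in replicates 9 and 21 and in no other embryo, while Ppan was at 0 in 3 embryos, replicates 21, 23 and 28. Alppl2, an alkaline phosphatase gene, had the highest ratio of the named whole-number genes above 1000 CPM, with 47.7 to 5138 CPM around a median of 2483 CPM and a ratio of 2.02, and was lowest in replicate 20. Of the 24 most variable genes named by the rule, 15 had at least 1 embryo at 0, against 0 of the 24 least variable.

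Several of these ratios rest on replicates 9 and 21. Without both embryos the ratio was 1.24 for Nop9, 1.33 for Ddx47, an RNA helicase of ribosome biogenesis, 1.42 for Pwp1, 1.41 for Pitpnb, 1.23 for Zfp707 and 1.11 for Ankrd10, all below the threshold. It stayed above the threshold at 1.79 for Gata1, 2.55 for Ppan, 1.97 for Alppl2, 3.43 for LOC100862015 and 4.27 for Gm21312. Over all genes, 446 then varied over the trend, among them 71.3% of the 477, and 254 under it, among them 56.1% of the 330.

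The named steady transcripts included many housekeeping genes and the abundant oocyte messages Omt2a and Omt2b. Rsl1d1, a nucleolar ribosomal L1 domain gene, held the lowest ratio of the 24 named steady genes, 0.39, with 292 to 803 CPM around a median of 552 CPM and a residual SD of 0.23. Dynll2, a dynein light chain gene, had 30.2 to 113 CPM around a median of 69.0 CPM and a ratio of 0.42. St13, which encodes an Hsp70 cochaperone, had 91.7 to 201 CPM around a median of 158 CPM and a ratio of 0.44. The highest level was 2.20 times the lowest for St13 and 2.75 times for Rsl1d1. Birc5, which encodes survivin of the chromosomal passenger complex, had 208 to 475 CPM around a median of 315 CPM and a ratio of 0.46, with shared reads in 83.3% of embryos. Other genes of this kind with ratios under 0.50 were Gemin7 of the SMN complex, Wbp11 and Taf11 of splicing and transcription, Anapc16 of the anaphase-promoting complex, Csnk1a1, Usp7, Gdi2 and Mlf2. Above 1000 CPM the ornithine decarboxylase antizyme gene Oaz1 had a ratio of 0.57, and the translation factor genes Eif4g2 and Eif5a had 0.60 and 0.60. Omt2b, the most abundant gene named here, had 4335 to 12214 CPM around a median of 7365 CPM and a ratio of 0.58. Its neighbour Omt2a had a ratio of 0.64, and the values of both genes hold shared reads in every embryo. Without replicates 9 and 21 the ratios of Omt2b, Omt2a, Oaz1 and Eif5a were 0.67, 0.73, 0.68 and 0.67, just past the limit.

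**Figure D2:**
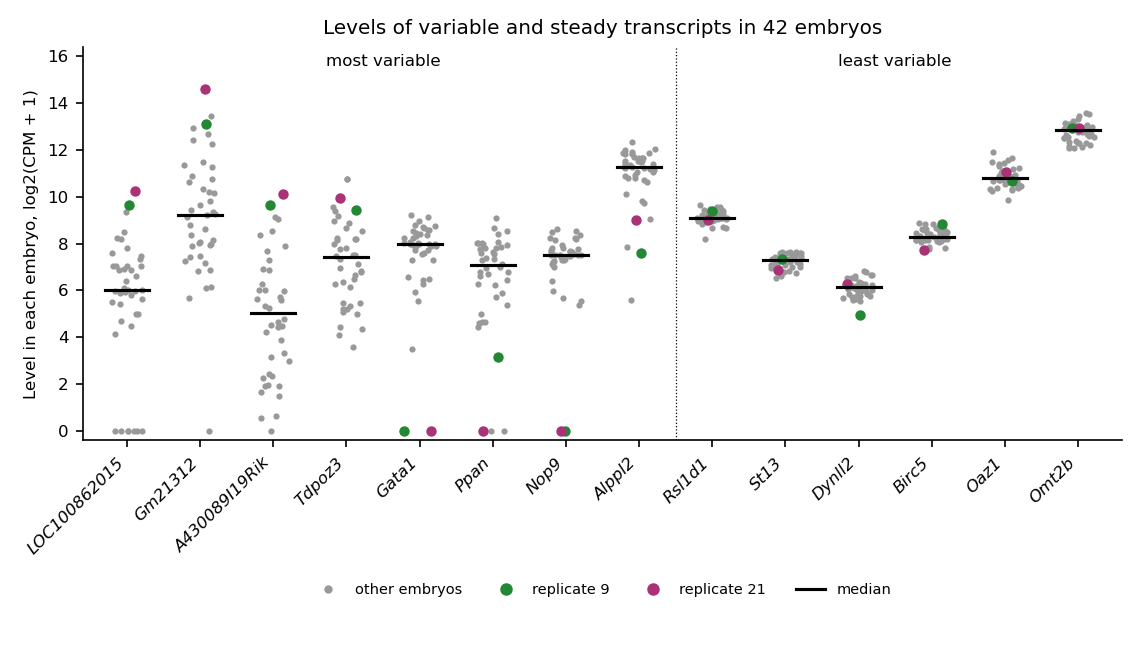
Levels of 8 variable genes (left of the dotted line) and 6 steady genes (right) in 42 embryos on a log2(CPM + 1) axis, with 1 point per embryo, a bar at the median, and replicates 9 (green) and 21 (purple) enlarged. The 2 embryos are among the 3 highest for LOC100862015 and Gm21312 and at 0 for Gata1 and Nop9, while the points of Rsl1d1, from 292 to 803 CPM, lie close together.

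Among the gene groups, the 2-cell transcripts held the largest share of variable members. Of 43 2-cell transcripts with a mean of 50 CPM or more, 22 varied over the trend (51.2%, against the 11.1% of all genes) and 0 under it. Zscan4d, a zinc finger gene of the transient 2-cell program, had 40.1 to 1399 CPM around a median of 262 CPM, and Zscan4f had 47.7 to 1430 CPM around a median of 253 CPM. Replicate 21 was highest for both and replicate 32 lowest for both. Zfp352, another zinc finger gene, had 267 to 3479 CPM around a median of 634 CPM with a ratio of 1.36, and was highest in replicate 19. Sp110, a nuclear body gene, was among the steadiest 2-cell transcripts, with 242 to 3040 CPM around a median of 1717 CPM and a ratio of 0.85. Only 4 of the 45 listed 2-cell transcripts, E330034G19Rik, Pramel6, Pramel7 and Zfp750, have whole numbers in every embryo, so levels of single copies in this list are uncertain.

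Of 51 oocyte transcripts, 5 varied over the trend (9.8%), Nlrp9b, Gm1965, Nlrp4f, Obox6 and E330021D16Rik, and 2 under it (3.92%), Omt2b and Omt2a. Of all genes 11.1% were over and 7.67% under. Without replicates 9 and 21 the oocyte counts were 5 over and 0 under. The other 44 lay between the limits. Among them Gdf9, an oocyte growth factor gene, had 127 to 780 CPM around a median of 294 CPM, Bmp15, its partner in the oocyte, had 387 to 2655 CPM around a median of 739 CPM, and Btg4, an adaptor of maternal message decay, had 286 to 3058 CPM around a median of 1342 CPM. Gdf9 was highest in replicate 9 and lowest in replicate 41.

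Of 76 nucleolar factors 18 varied over the trend (23.7%, against 11.1% of all genes), but 6 without replicates 9 and 21. They included the helicase genes Ddx47, Ddx49, Ddx27, Ddx54 and Ddx10 and the RNA polymerase I subunit genes Polr1e and Polr1b. Ddx54 had 0 to 843 CPM around a median of 384 CPM and Nop2, a ribosomal RNA methyltransferase gene, had 56.4 to 1178 CPM around a median of 590 CPM. Replicate 28, the only embryo of batch D, was lowest for both genes, and replicates 9 and 21 were the next lowest for Ddx54.

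The remaining groups held 0 to 6 genes over the trend each, where 11.1% of all genes were over and 7.67% under. Among 67 cytosolic ribosomal protein genes 2 varied over the trend (3.0%), Rps4l and Rps27. Another 6 varied under it (9.0%), among them Rpl7a, Rpl17 and Rps2. Among 30 proteasome genes 3 were over (10%), Psma5, Psmd14 and Psmb5, and 2 under (6.67%). Without replicates 9 and 21 the count over was 0 of 30. For oxidative phosphorylation 0 of 16 genes were over and 3 under (18.75%), Cox6a1, Atp5b and Cox7a2. For mitochondrial ribosomal proteins 0 of 16 were over and 6 under (37.5%). Of 31 heat shock and chaperonin genes, Hspb1, Hsph1, Cct4, Bag3 and Dnajb11 were over (16.1%) and Hsp90aa1, Dnajb6, Dnaja2 and Ahsa1 under (12.9%), against 11.1% and 7.67% of all genes, and 2 were over without replicates 9 and 21. Of 54 cell division genes, Kif11, Aurkb, Mcm3, Incenp, Cdk2 and Cdc20 were over (11.1%) and Birc5, Ccnb2, Cdca3, Kif23 and Pttg1 under (9.26%), shares near those of all genes, and 2 were over without replicates 9 and 21. Aurkb and Incenp encode partners of Birc5 in the chromosomal passenger complex, and their ratios of 1.86 and 1.77 stood against 0.46 for Birc5. Of 13 p53 and stress genes Phgdh and Aen were over (15.4%), and of 10 cholesterol genes 0 were over or under. Nanog and Tfap2c, which are later blastocyst regulators, were 2 of 4 lineage genes over the trend (50%, against 11.1% of all genes), a small list. Tfap2c lay just past the limit, at a ratio of 1.5008. Nanog had 0.739 to 441 CPM around a median of 26.2 CPM. Its values are not whole numbers in 92.9% of embryos, so its level is uncertain.

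Whether chosen partner genes move together was tested on 22 gene pairs, with Pearson's r of the residuals and a two-sided permutation of embryos within batches, 100000 resamples and Benjamini-Hochberg adjustment over the 22 pairs. In 11 of the 22 pairs the adjusted p was below 0.05, and all 11 had a positive r. Over all pairs of the 4300 genes the quartiles of r were −0.22 and 0.25. The share of those pairs that would pass this test was not computed, so the 11 pairs cannot be set against a background. The strongest was Ccnb1 with Cdk1, the cyclin and the kinase that drive mitosis. Cdk1 had 86.9 to 980 CPM around a median of 677 CPM and Ccnb1 had 724 to 3572 CPM around a median of 2146 CPM. Replicates 9 and 21 were the 2 lowest embryos for both genes. Their r was 0.87 and Spearman's rho 0.82 (permutation adjusted p = 7.33e-05 and 5.5e-05), which rest on the smallest p that the permutations can give, 1e-05. Without the 2 embryos farthest from the median of Ccnb1, which are replicates 9 and 21, r was 0.78, and within batches E, C, F and A it was 0.89, 0.94, 0.81 and 0.88. With the first principal component of the residuals removed, r was 0.33. Over 16 alternatives the permutation adjusted p of this pair was 3.67e-05 to 0.106.

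Rpl18 and Rps23, proteins of the large and small ribosomal subunits, had r = 0.82 and rho = 0.77 (permutation adjusted p = 7.33e-05 and 5.5e-05). Rpl18 had 7.56 to 187 CPM around a median of 83.8 CPM and Rps23 had 22.6 to 178 CPM around a median of 92.2 CPM. Both were highest in replicate 5, and r was 0.76 without replicates 9 and 21, 0.87, 0.88 and 0.79 within batches E, C and A, and 0.33 within batch F. Gdf9 and Bmp15, on different chromosomes, had r = 0.70 and rho = 0.68 (permutation adjusted p = 0.000132 for each). Within batches E, C, F and A their r was 0.85, 0.66, 0.50 and 0.64, and without batch E it was 0.51 with an adjusted p of 0.0602 by permutation, where the range over 16 alternatives is 3.67e-05 to 0.0605. The chaperone genes Hspa8 and Hsp90aa1 had r = 0.53 and rho = 0.55 (permutation adjusted p = 0.00108 and 0.00135).

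Zscan4d rose with 3 other 2-cell transcripts. Its r was 0.61 with the arginase gene Arg2, 0.58 with Zfp352 and 0.54 with Tcstv3, with permutation adjusted p of 0.000251, 0.000147 and 0.00117. Their rho values were 0.66, 0.62 and 0.54, with permutation adjusted p of 5.5e-05, 0.000183 and 0.00171. With its near-identical neighbour Zscan4c it had r = 0.77, which may hold shared reads, since values of both genes are not whole numbers in any embryo. Zscan4d and Sp110 had r = −0.24 (permutation adjusted p = 0.248). Zscan4d and the oocyte message Omt2b had r = 0.41 and rho = 0.38 (permutation adjusted p = 0.0140 and 0.0384), but r was 0.65 in batch E and 0.83 in batch F against −0.45 in batch C and −0.62 in batch A, and 0.14 without batch E.

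Fbl and Nop56, which encode proteins of the same box C/D ribonucleoprotein, had r = 0.65 and rho = 0.50 (permutation adjusted p = 0.00011 and 0.00303). Their r was 0.48 without replicates 9 and 21, and 0.04 with the first principal component of the residuals removed. Over 16 alternatives their permutation adjusted p was 5.5e-05 to 0.897. Psma1 and Psmb1, subunits of the proteasome core, had r = 0.58 and rho = 0.42 (permutation adjusted p = 0.000715 and 0.0221). Without replicates 9 and 21, refitted, their r was 0.30 and the permutation adjusted p was 0.133, where the range over 16 alternatives is 0.000196 to 0.133. The other 11 pairs did not pass. They included the nucleolar pair Ncl and Npm1 with r = 0.09, the divergently transcribed chaperonin genes Hspd1 and Hspe1 with 0.07, the p53 targets Cdkn1a and Mdm2 with −0.21, the H3.3 genes H3f3a and H3f3b with 0.11, and Zp3 with Gdf9 with −0.05. Zscan4d and Rplp0 had r = −0.29 (permutation adjusted p = 0.121) and passed in 3 of 15 alternatives, over which the adjusted p was 0.0172 to 0.921. With the first principal component of the residuals removed, 4 of the 22 pairs passed: Rpl18 with Rps23, Hspa8 with Hsp90aa1, and Zscan4d with Zscan4c and with Arg2. In batch E alone 8 pairs passed, without those of Zscan4d with Tcstv3, Zfp352 and Arg2 and of Hspa8 with Hsp90aa1, and with Rplp0 and Omt2b at r = −0.60 (permutation adjusted p = 0.0339, where the range over 15 alternatives is 0.0339 to 0.962), a pair with r = −0.01 over all 42 embryos. Without batch E 7 passed.

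**Figure D3:**
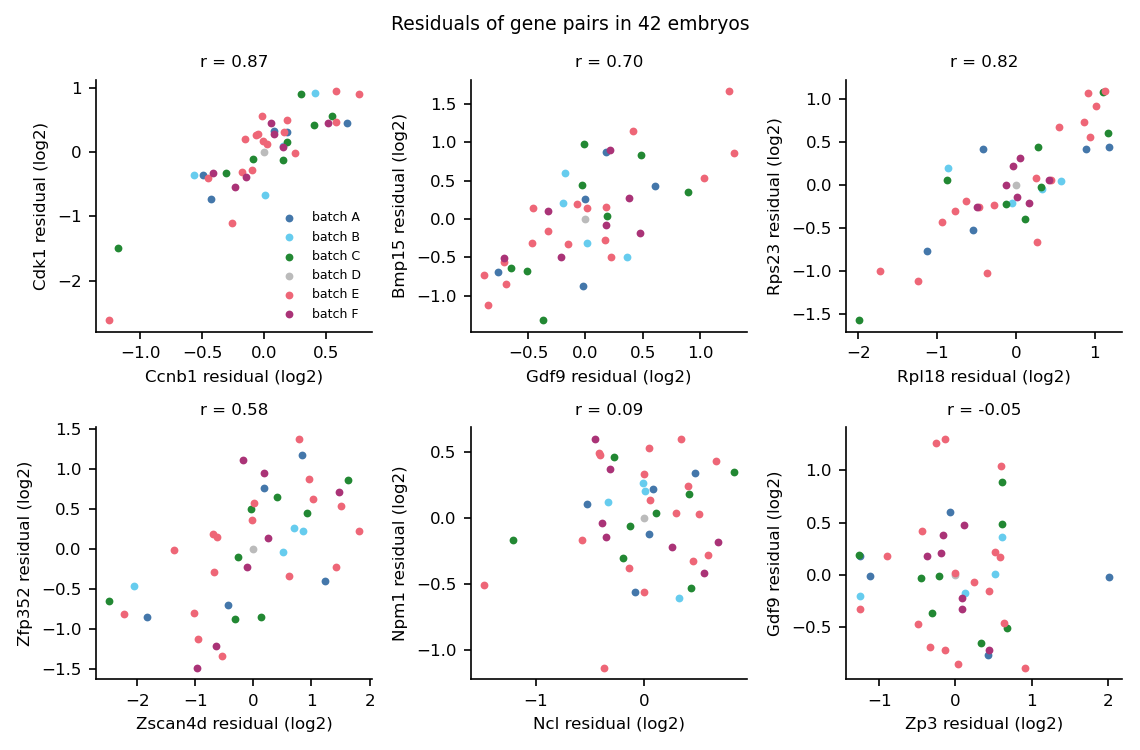
Residuals in log2 units of 6 gene pairs, with 1 point per embryo coloured by batch. Ccnb1 and Cdk1 (r = 0.87), Rpl18 and Rps23 (0.82), Gdf9 and Bmp15 (0.70) and Zscan4d and Zfp352 (0.58) rise together, while Ncl and Npm1 (0.09) and Zp3 and Gdf9 (−0.05) have an r near 0.

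Across all 9242850 pairs of the 4300 genes the median r was 0.00766, and 0.995% of the pairs had an r of 0.7 or more and 0.207% an r of −0.7 or less. These values are descriptions, with no test. The 20 named pairs of highest r, from 0.97 to 0.99, all joined genes whose values are not whole numbers, as for Gm2016 and Gm5662 on chromosome 12 (r = 0.98) or Ubb and Gm1821 (0.98), so shared reads may be part of them. Among genes with whole numbers in every embryo, a restriction made after values were seen, the highest was Gpn3 with Pwp1 on different chromosomes, r = 0.95, and 0.85 without replicates 9 and 21. Map1lc3b, an autophagy gene, and Nhp2l1, a small nuclear ribonucleoprotein gene, had r = 0.95 and 0.90 without those embryos, and within batches E, C, F and A it was 0.94, 0.97, 0.99 and 0.98. Alppl2 and Impdh2, an enzyme gene of guanine nucleotide synthesis, had 0.92 and 0.91, and Bmp5 with the oocyte meiosis kinase gene Wee2 had 0.92 and 0.91. Gm1965, of the oocyte list, and the RNA-binding protein gene Rbpms2 had 0.93 and 0.91.

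The pairs of lowest r joined genes that were high in different embryos. Khdc1b was low where Rars, the arginyl-tRNA synthetase gene, was high, with r = −0.89 and −0.86 without replicates 9 and 21. Luc7l and Rbpms2 had r = −0.88, and Parl, a mitochondrial protease gene, and Ywhah, a 14-3-3 gene, had −0.88 with −0.88, −0.93, −0.90 and −0.94 within batches E, C, F and A. The nucleolar genes Ftsj3 and Utp3 had r = −0.87 with Jazf1 and −0.86 with Pik3cd. With the first principal component removed, r was −0.47 for Khdc1b and Rars and −0.42 for Luc7l and Rbpms2. It was −0.67 for Parl and Ywhah, −0.69 for Ftsj3 and Jazf1 and −0.64 for Utp3 and Pik3cd.

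Within the gene groups, ribosomal proteins, 2-cell transcripts and nucleolar factors varied together most. The median r over pairs was 0.61 for 86 cytosolic ribosomal proteins, 0.51 for 45 2-cell transcripts and 0.49 for 80 nucleolar factors, against 0.00766 over all pairs. Without replicates 9 and 21 these medians were 0.54, 0.55 and 0.34. Proteasome genes followed with 0.33 and oocyte transcripts with 0.24. Oxidative phosphorylation and mitochondrial ribosomal proteins had 0.16 and 0.16, cell division 0.13, heat shock genes 0.07, cholesterol genes 0.05, olfactory and vomeronasal receptors 0.03 and p53 targets 0.01. The list medians cover all listed members, while 0.00766 covers genes with a mean of 50 CPM or more. Only 16 of 69 oxidative phosphorylation and 16 of 65 mitochondrial ribosomal genes reached that mean. The part of expression level in the order of the lists was not tested. Over members with whole numbers the medians were 0.63 for 61 ribosomal protein genes, 0.51 for 58 nucleolar genes and 0.21 for 35 oocyte genes. Only 4 of the 45 2-cell transcripts have whole numbers, so no such median was computed for them. Shared reads may be part of their median.

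Scores of the groups, the mean standardised residual of the members, moved in opposed blocks. Given as descriptions over 42 embryos that share batches and scaling, the oocyte score was opposed to the nucleolar score at r = −0.80 (rho −0.77), to the proteasome score at −0.83 and to the ribosomal protein score at −0.72. Ribosomal protein and nucleolar scores rose together at 0.87, and nucleolar and cell division scores at 0.89. The 2-cell score rose with the oocyte score at 0.59 and was opposed to the nucleolar score at −0.52. Replicate 9 lay at one end, with scores of 1.28 for oocyte transcripts and −2.62 for nucleolar factors, and replicates 26, 22 and 27 were at the other, with nucleolar scores of 1.11, 1.05 and 0.89. The relation of oocyte and nucleolar scores was −0.76 without replicates 9 and 21, −0.88, −0.83 and −0.62 within batches E, C and A, and −0.20 within batch F. The relation of 2-cell and oocyte scores was 0.59, 0.95 and 0.63 within batches E, C and A and 0.11 within batch F, and that of 2-cell and ribosomal protein scores, −0.45 over all embryos, was 0.57 within batch F.

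**Figure D4:**
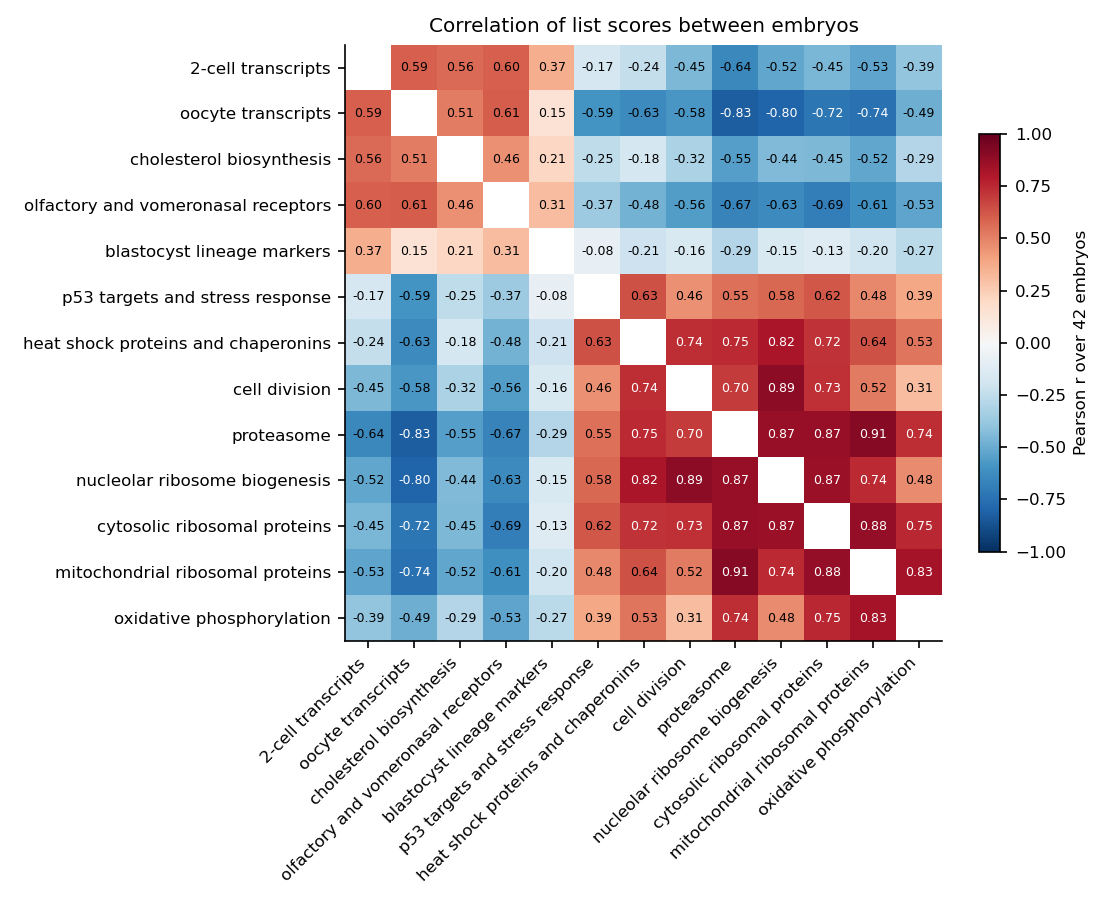
Pearson's r over 42 embryos between the scores of 13 gene groups, from −1 (blue) to 1 (red), with the value in each cell. The synthesis groups from proteasome to mitochondrial ribosomal proteins form a red block, with 0.87 between ribosomal protein and nucleolar scores, and the oocyte score is blue against them, with −0.80 against the nucleolar score.

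**Figure D5:**
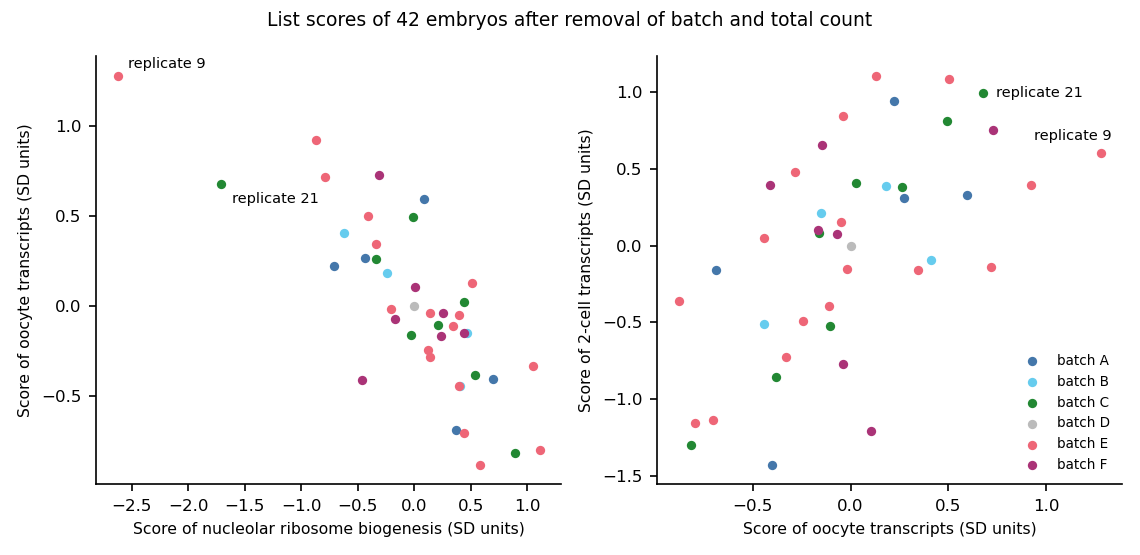
Left, the oocyte score against the nucleolar score, and right, the 2-cell score against the oocyte score, in SD units, with 1 point per embryo coloured by batch and replicates 9 and 21 labelled. The left points fall along a descending line (r = −0.80) and the right ones rise with more scatter (r = 0.59).

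Inside the 2-cell list most families moved together, with Sp110 apart from some of them. The mean residuals of 5 Zscan4 genes and 5 Usp17l deubiquitinase genes had r = 0.84, those of 4 Tdpoz genes and Zfp352 0.87, Usp17l and Zfp352 0.83, and 2 Tcstv genes and Zfp352 0.80. Zscan4 had 0.56 with Tdpoz and 0.67 with Arg2. Sp110 had −0.10 with Zscan4 and 0.12 with Usp17l, and 0.62 with Tdpoz. The value for Zscan4 and Sp110 was −0.22 in batch E, 0.21 in batch C, −0.34 in batch A and 0.82 in batch F, so it had no common sign over batches.

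A single axis held much of this variation. The first principal component of the residuals took 30.9% of their variance, and the next 2 took 5.53% and 5.15%. Genes high at its upper end included Ppat and Paics of purine synthesis, the kinase genes Cdk1, Nek2 and Chek2, Rars, Cnbp, Ddx54 and Eif6, with correlations of 0.90 to 0.93. At its lower end were Smarca2, an ATPase gene of the SWI/SNF remodelling complex, and Rbpms2 (−0.91 and −0.91), with Ermp1, Gm1965 and Khdc1b (−0.88, −0.87 and −0.86). Of the nucleolar factors 68 of 80 and of the ribosomal proteins 67 of 86 had a correlation of 0.5 or more with it, as did 1289 of all 4300 genes, while 31 of 64 oocyte and 26 of 45 2-cell transcripts had −0.5 or less, as did 838 of the 4300. These counts describe members of the data that made the component and are no test.

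Replicate 9 of batch E lay at −3.48 on this axis and replicate 21 of batch C at −2.27, against −1.43 for the next lowest embryo, and without both the component took 22.7% of the variance. Replicates 22 and 26, the embryos of the lowest totals, lay highest at 1.57 and 1.61, and without them it took 28.02%. Technical measures moved with the axis: its r was −0.69 with the share of counts in the 10 largest genes and 0.54 with the scaling factor, and 0.18 with the number of detected genes, and their part in the result was not tested. With the component removed, the median r within lists was 0.44 for 2-cell transcripts, 0.30 for ribosomal proteins, 0.07 for oocyte transcripts and 0.04 for nucleolar factors. Of 15 cumulus markers Amhr2 alone is in the table, at 15.96 to 341 CPM with a median of 191 CPM, and its r with the axis was 0.87. Of 11 sperm markers Odf2 and Ldhc are in the table, with a summed level of 136 to 888 CPM and a median of 299 CPM. Of 11 somatic markers Pecam1 is there, at 2.09 to 227 CPM with a median of 70.5 CPM, and defining markers such as Prm1, Foxl2 and Col1a1 are not among the listed genes. The part of other cell types in the axis was not tested.

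Genes that follow a single transcript were sought with edgeR's quasi-likelihood test of a slope on the residual of an anchor gene, over 8734 genes with Benjamini-Hochberg adjustment. Zscan4d had the most: 1299 genes rose with it (14.9%) and 1325 fell (15.2%). At an unadjusted p below 0.05 there were 3593 genes. Zscan4d itself had an r of −0.78 with the first principal component, and its followers Smarca2 and Marf1 had −0.91 and −0.82. Slopes with that component as a term were not fitted, so following Zscan4d and following the axis cannot be told apart here. Of 44 other 2-cell transcripts 30 rose, and 39 had a positive slope, while of 64 oocyte transcripts 32 rose and 1 fell. Of 86 ribosomal protein genes 61 fell, and all 86 had a negative slope. Of 80 nucleolar factors 54 fell, with 77 negative slopes, and of 34 proteasome genes 21 fell, with 29 negative slopes. Over all genes the median slope was 0.01, against 0.55 for the 2-cell list and −0.31 for the ribosomal proteins, in log2 units of the gene per log2 unit of Zscan4d. The members of these lists were chosen with such results known, so the counts are descriptions.

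The closest followers of Zscan4d were Zscan4f, with a slope of 0.77 ± 0.07 (SE, 42 embryos), Zscan4b, Gm2022 and Gm2016, all of which have shared reads. Marf1, a regulator of meiosis and messages in the oocyte, has whole numbers in every embryo and had 308 to 1943 CPM around a median of 786 CPM, with a slope of 0.52 ± 0.06 (edgeR adjusted p = 4.1e-08). Smarca2 followed with 0.75 ± 0.09 and 9230110C19Rik with 0.89 ± 0.11. The closest opposed genes were Zdhhc7, a palmitoyltransferase gene, with −0.66 ± 0.09 (edgeR adjusted p = 1.18e-06), and the proteasome ATPase and lid genes Psmc5 with −0.69 ± 0.10 and Psmd7 with −0.51 ± 0.08. Psmd7 had 29.3 to 504 CPM around a median of 268 CPM. Among the 10 opposed genes named by the rule, Ino80c and Nr2c2ap had adjusted p above 0.05 in at least 1 alternative, with highest values of 0.0845 and 0.0649 in edgeR or DESeq2. Without replicates 9 and 21 the genes that followed Zscan4d numbered 838 up and 730 down, and without batch E 171 up and 114 down.

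Fewer genes followed the other anchors. With Rplp0, a ribosomal stalk protein gene at 413 to 4599 CPM around a median of 1836 CPM, 75 genes rose (0.859%) and 48 fell (0.55%). Of 85 other ribosomal protein genes 14 rose, and 84 had a positive slope. The closest were Guca1a, with a slope of 0.92 ± 0.11 (edgeR adjusted p = 3.93e-06), Cdk2ap1, Fbxo15 and Sp110, and the closest opposed genes were Nlrp4f, with −1.33 ± 0.23, Sspn and Lrrfip1. With Omt2b 34 genes rose (0.389%) and 2 fell (0.0229%), and 6 of 63 other oocyte transcripts rose. Omt2a had a slope of 1.05 ± 0.14 (edgeR adjusted p = 2.65e-05), and Serf2, Gstm5, Cks2, a cyclin-dependent kinase subunit gene, and Ceacam20 came next. The opposed genes were Ccdc117 and the transactivator gene Ciita. Both counts rest on choices of embryos and terms: without the 2 embryos of the lowest total 553 genes followed Rplp0, and without batch E 2 did, and without replicates 9 and 21 the totals were 165 for Rplp0 and 73 for Omt2b. For each of the 20 genes named with Rplp0 and the 12 past the threshold with Omt2b the edgeR or DESeq2 adjusted p was above 0.05 in at least 1 alternative.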

How the data were processed

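Single-embryo RNA-seq values were taken as deposited. Judged from the deposited values, the authors' table holds expected counts per gene, with 0.1 written for 0. Per the submitters' processing notes reads were aligned with Bowtie to mm10; no source used here names the counter or annotation. Of the values 86.0% are whole numbers (tolerance 1e-09), and the others were taken as reads shared among genes. The deposited expected counts were rounded, scaled by TMM in edgeR 4.0.16 (R 4.3.3) and converted to CPM. A gene's residual is log2(CPM + 1) less its batch means and its slope on log2 total count, with 35 residual degrees of freedom. The trend of residual SD on mean is a lowess curve (span 0.3) over genes with a mean of 50 CPM or more. Replicate 28, alone in batch D, has residuals of 0. Total counts of 664569 to 4180406 set the precision, and limits from counts cover counting error only.

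Anchor slopes were tested with edgeR's quasi-likelihood test, with DESeq2 1.42.0 as an alternative, and pairs with permutations in Python 3.11.15, numpy 2.4.6 and scipy 1.17.1. Scripts were tested on simulated data. The genes named are, in each of 3 classes of mean, the 8 most and the 8 least variable by the ratio nearer to the trend of all embryos and of those without the 2 lowest totals. They are also the 20 pairs of highest and the 10 of lowest r, the 10 genes of smallest p in each direction for an anchor, and list members. The members and lists were chosen with earlier results of these data known. A further anchor, a Y-linked gene or Xist, was not run because none of its genes is listed. Titles also carry an F number whose meaning is not given. It took 4.62% of the first component, and embryos could not be paired by it. Promoters came from RefSeq, GRCm38.p6; 8722 of the 8735 genes matched its gene list by symbol or transcript after 10 symbols turned into dates were restored.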

Additional observations from a re-analysis of the deposited data

How the results depend on the processing

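The 11 pairs past the threshold kept a positive r under every alternative run, while r changed sign for 6 of the other pairs, as for Rplp0 with Omt2b (−0.60 to 0.43) and Ncl with Npm1 (−0.27 to 0.31). Of the summary results under each alternative, 124 stayed within 1.5 times or the spread of the reported value and 32 moved; the cause was not tested. The pairs past the threshold, 11 of 22, numbered 7 without batch E and 4 with the first component removed. Genes over the trend numbered 274 at a mean of 100 CPM or more and 161 with edgeR's tagwise variation, and genes under it 515 in batch E alone, 587 at a mean of 20 CPM or more and 197 at 100 CPM or more. With the first component removed the median r was 0.298 for ribosomal proteins and 0.0358 for nucleolar factors. Genes following Zscan4d, 1299 up and 1325 down, numbered 285 without batch E, 1126 in batch E alone and 1568 without replicates 9 and 21. Those following Rplp0, 123 in all, numbered 53 with DESeq2 size factors, 494 with total count scaling only, 624 with no batch term, 73 with no total count term, 553 without the 2 lowest totals, 2 without batch E, 11 in batch E alone and 616 with DESeq2's Wald test of 6871 genes. Those following Omt2b, 36 in all, numbered 80, 3, 241 and 466 under the first 4 of these settings, 1 with detected genes as a term, 13 without the 2 lowest totals, 2 without batch E, 22 in batch E alone, 146 with the Wald test, 63 without replicate 9 and 73 without replicates 9 and 21.

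With the F number as a replicate block beside the batch, 11 pairs passed, 494 genes varied over and 358 under the trend, and 1167 genes rose and 1139 fell with Zscan4d, while 159 followed Rplp0 and 6 Omt2b. The samples share only that number, since the labels do not say what it pairs. Leaving out replicates 9 and 21, removing the first component, keeping only whole-number genes and the block of file header columns were chosen after seeing the data. The lowest totals limit what could be seen of genes near 4.56 CPM.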

Other observations

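Transcripts of 3 of 11 olfactory and vomeronasal receptors, named after their values were seen, were far above their medians in 1 embryo. Vmn1r58 had 2.22 to 762 CPM around a median of 15.7 CPM, Olfr856-ps1 had 0 to 733 CPM around a median of 12.5 CPM, and Olfr613 had 0 to 471 CPM around a median of 9.95 CPM. All 3 were highest in control replicate 26, which has the second lowest total count, 678303. The receptor score of that embryo was −0.05, against 0.86 for replicate 9 and 0.69 for replicate 38. The score is a mean of standardised residuals that weighs each receptor alike, so it does not describe the summed level. The summed level of the 11 receptors ran from 101 to 2208 CPM with a median of 295 CPM. Each of the 3 highest levels above, all of replicate 26, alone exceeds that median. Values of these 3 genes hold shared reads in 95.2% to 100% of embryos, so their source cannot be told apart among copies.

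The 2-cell score and the cholesterol score rose together at r = 0.56, and the oocyte and cholesterol scores at 0.51. Within batches E, C, F and A the first r was 0.51, 0.89, 0.17 and 0.60, and the second 0.46, 0.81, 0.34 and 0.25. The median r within the cholesterol list was 0.05, so its members hardly moved together. Across genes, which are not independent replicates, the correlation with the first component had a rho of −0.162 with transcript length and 0.0544 with GC content.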
